A study of Homo sapiens with 4 samples.

Results

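The genes of antigen presentation by MHC class I were followed, with creatine or without it, in human cells labelled DLD-1, the name of a colorectal carcinoma line. The 9 genes, chosen by name among the 34545 symbols measured, were the heavy chain genes HLA-B, HLA-C, HLA-E and HLA-F, the light chain gene B2M, the peptide transporter genes TAP1 and TAP2, the peptide loading gene TAPBP and the regulator gene NLRC5. The 2 groups were control (Ctrl, n = 2 libraries) and creatine (Creatine, n = 2 libraries). All 4 libraries carried the label DLD-1 with wild-type (WT) genotype and came from total RNA. The labels give no dose, duration or vehicle. The series addresses creatine uptake and ferroptosis in colorectal cancer, so these genes were not its stated subject.

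MHC class I molecules show peptides from inside the cell to cytotoxic T cells and natural killer cells. The proteasome makes the peptides, the TAP1-TAP2 transporter carries them into the endoplasmic reticulum, tapasin (TAPBP) helps to load them, and a heavy chain reaches the surface when paired with beta-2-microglobulin (B2M). NLRC5 switches on the genes of this pathway from a shared set of promoter elements, and interferon raises most of them. Loss of class I at the surface is a known way in which colorectal tumours escape T cells.

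The elements through which these genes are known to be controlled lie just upstream of their starts, and the stretches below show how far the members share them. RefSeq promoters (GRCh38.p14) were matched by symbol for 7 of the 9 genes. The sequences are those of the reference, not of the cells. Capitals mark the letters matched by any of 5 motifs, searched on both strands in the 250 bases before each start. These were the interferon-stimulated response element (GAAA repeated after a gap of 2 bases), a shorter form of it (GAA, a gap of 2 bases, then GAAA), the kappa B site (by its usual consensus), the core of the X2 box (TGACG) and the inverted CCAAT of the Y box (ATTGG). Both interferon motifs can overlap each other and repeats of themselves, and overlapping matches run together.
HLA-B, chr6:31357219-31357374, minus strand: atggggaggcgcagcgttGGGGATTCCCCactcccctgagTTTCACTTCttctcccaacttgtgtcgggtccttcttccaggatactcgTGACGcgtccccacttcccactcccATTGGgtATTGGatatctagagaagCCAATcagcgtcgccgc
HLA-C, chr6:31272132-31272287, minus strand: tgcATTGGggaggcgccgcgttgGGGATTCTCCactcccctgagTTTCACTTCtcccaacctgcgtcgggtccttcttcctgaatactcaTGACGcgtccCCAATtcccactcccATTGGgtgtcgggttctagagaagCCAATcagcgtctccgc
B2M, chr15:44711322-44711477, plus strand: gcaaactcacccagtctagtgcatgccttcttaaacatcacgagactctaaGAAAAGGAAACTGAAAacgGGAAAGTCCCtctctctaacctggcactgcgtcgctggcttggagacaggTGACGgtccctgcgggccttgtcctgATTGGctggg
The other 4 are shown only around the interferon element.
HLA-F, chr6:29723269-29723298, plus strand: tccccagagTTTCTCTTTCtctcccaaccc
TAP1, chr6:32853816-32853845, minus strand: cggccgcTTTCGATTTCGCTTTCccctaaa
TAP2, chr6:32838778-32838807, minus strand: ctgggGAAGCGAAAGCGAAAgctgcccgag
TAPBP, chr6:33314079-33314105, minus strand: tttggagGAAAGTGAAAGTGAAAggag

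The full interferon motif was found for 5 of the 7 genes (HLA-F, B2M, TAP1, TAP2 and TAPBP), against 3.02% of the 34943 promoters searched. A gene was counted where any promoter listed for it matched, whereas the shares are of single promoters, so they are unlike measures. HLA-B and HLA-C instead held the shorter form, as did TAP2, against 6.56% of all promoters. B2M, TAP1 and TAPBP each carried overlapping repeats of the full motif. Kappa B letters were in 5 of the 7 (HLA-B, HLA-C, B2M, TAP1 and TAPBP, against 9.95% of all). TGACG was in 4 (HLA-B, HLA-C, B2M and TAP2, against 21.2% of all) and ATTGG in 5 (HLA-B, HLA-C, HLA-F, B2M and TAP1, against 32.0% of all). A match describes letters in the reference and shows no binding. HLA-B and HLA-C thus have nearly the same arrangement upstream, while their read counts below were far apart.

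Total counts were between 48249693 and 59860043 per library, and values are given as CPM, counts scaled to library size with TMM factors. A count of 0 still allows 3 counts, here 0.05 to 0.0626 CPM, by counting error alone. Whether the replicates were separate cultures is not in the labels, and p-values therefore measure a spread between libraries that may be technical. Markers of colon epithelium were mostly missing, which goes against the label of a colorectal carcinoma line, so the cells are called here by their label alone. Of 15 such genes 13 were under 1 CPM in every library, CDX1 and FABP1 had 0 counts in all 4, and EPCAM had 2 counts in 1 control and 0 elsewhere. The other 2, the keratin genes KRT18 and KRT8, were abundant and made up nearly all of the epithelial sum below. They averaged 200 and 193 CPM in controls and 180 and 153 CPM with creatine. The adherens junction gene CDH1 had 10 to 20 counts, while the mesenchymal gene VIM averaged 2612 CPM in controls against 2345 with creatine. Of 16 immune markers, cells rich in class I, 11 were under 1 CPM in every library, and the leukocyte gene PTPRC had 2 and 6 counts in controls and 24 and 0 with creatine. The summed immune list was 202 and 192 CPM in controls and 170 and 168 CPM with creatine. Most of it was CD68, which lysosomes of many cells contain. The next most abundant, CSF1R, averaged 16.4 CPM in controls and 13.6 CPM with creatine. Mesenchymal markers summed to 6056 and 5948 CPM in controls and 5427 and 5338 CPM with creatine. That sum was mostly VIM and MMP14, the latter averaging 2087 CPM in controls and 1777 with creatine. Of the 14 mesenchymal genes, 7 averaged over 10 CPM. Not every gene of the list fell, since ZEB1 averaged 62.2 CPM in controls and 82.9 with creatine. The epithelial list summed to 393 and 397 against 328 and 343 CPM. The endothelial list, nearly all TIE1, summed to 373 and 386 against 313 and 317 CPM. The part of these shifts in the results below was not tested. In bulk RNA, fewer cells of a type and less RNA per cell cannot be told apart.

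Levels of different genes were compared per kilobase of the gene length in the deposited table (RPKM, mean ± SD over all 4 libraries). B2M stood highest at 105 ± 9.36 RPKM, above every other member in every library. TAP2 (18.0 ± 1.55 RPKM) and HLA-E (15.7 ± 3.73 RPKM) came next, and their ranges overlapped. TAP1 followed at 6.84 ± 1.13 RPKM and HLA-B at 2.14 ± 1.01 RPKM, each apart from its neighbours. NLRC5 (1.20 ± 0.168 RPKM) and TAPBP (1.11 ± 0.241 RPKM) overlapped. HLA-F (0.0884 ± 0.0662 RPKM) and HLA-C (0.0161 ± 0.0228 RPKM) were at the bottom and overlapped as well. With the length of the principal protein-coding transcript in GENCODE 29 instead, the order was the same but for TAPBP (2.97 RPKM), which then stood above NLRC5 (2.17 RPKM).

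**Figure D1:**
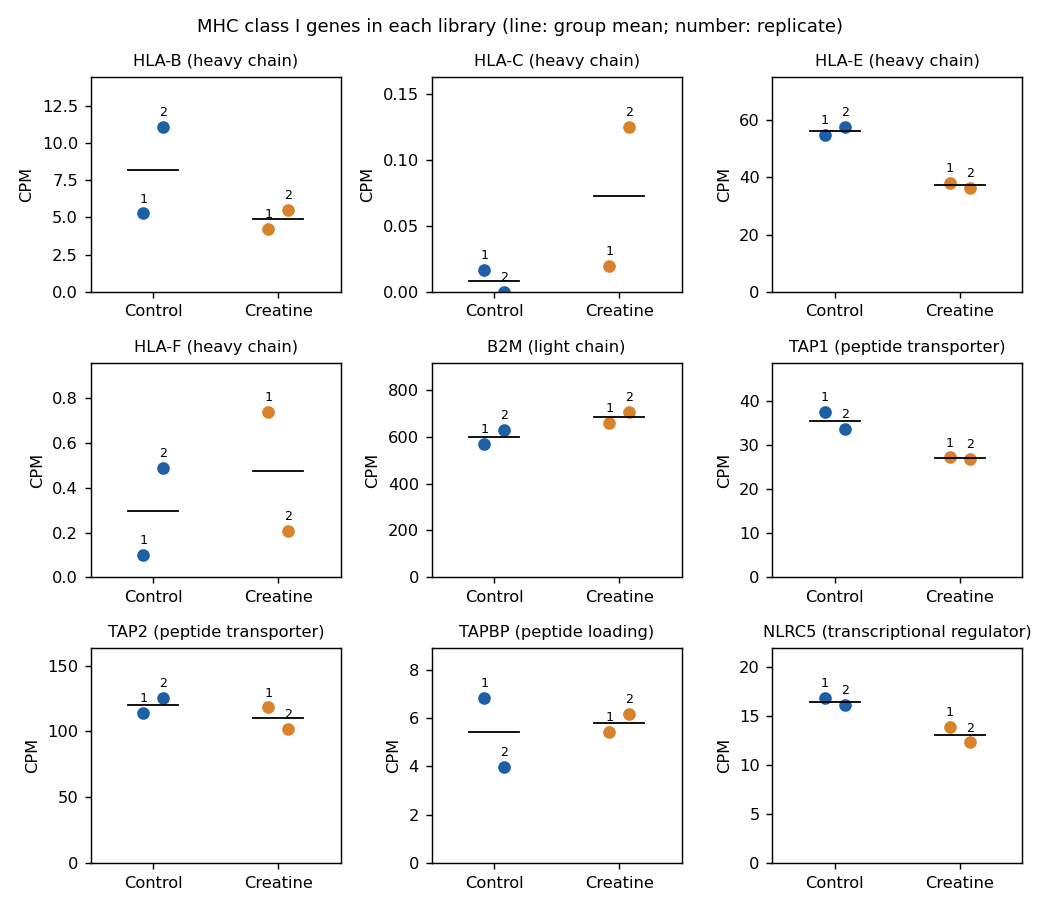
Expression of the 9 MHC class I genes in CPM (vertical axis, from 0, with its own scale in each panel) in the 2 control and 2 creatine libraries, with points numbered by replicate and a line at the group mean. The creatine libraries lie below both controls for HLA-E, TAP1 and NLRC5. They lie above both for B2M and for HLA-C, which is near the floor. Among all genes tested, the groups did not overlap in 58.2%. The controls of HLA-B lie far apart at 5.26 and 11.1 CPM.

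With creatine, the transcripts of HLA-E and TAP1 fell and B2M rose slightly, before any correction for GC content. HLA-B was called lower as well, but its groups overlapped. Without control replicate 2 its log2 fold change was -0.13. Of the 8 members tested, 3 were lower and 1 was higher (edgeR's quasi-likelihood test, Benjamini-Hochberg adjusted p under 0.05 over all genes). Among all 15302 genes tested, 10.5% were lower and 9.15% higher, or 19.6% in either direction. Control and creatine libraries did not overlap in 5 of the 9 members, the untested HLA-C included. Among the genes tested the same held for 58.2%, so such separation is common here. HLA-C was left out of the test by the filter on low counts. The median log2 fold change of the 8 was -0.23, against 0.011 over all genes tested. Log2 fold changes are creatine over control throughout. The count of members was 2 without control replicate 1 (17.4% of all genes), 3 without control replicate 2 (19.4%), 2 without creatine replicate 1 (7.27%) and 3 without creatine replicate 2 (12.1%).

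HLA-E encodes a heavy chain of little variation that shows leader peptides of other class I molecules to the NKG2A receptor of natural killer cells. It lies on chromosome 6 at 30489467 to 30494205 (GRCh38, GENCODE 29, plus strand). Its levels were 54.8 and 57.7 CPM in the controls and 38.1 and 36.2 CPM with creatine. Both creatine libraries were below both controls, by far more than the gap within either group. The means were 56.2 ± 2.03 and 37.2 ± 1.38 CPM (SD, n = 2 each), a log2 fold change of -0.60 (SE 0.0888, edgeR adjusted p = 2.2e-04). It passed with every library left out in turn, at log2 fold changes between -0.64 and -0.56.

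HLA-B, a classical heavy chain gene that presents peptides to cytotoxic T cells, lies on chromosome 6 at 31269491 to 31357188 (minus strand), a span that GENCODE 29 carries into the neighbouring HLA-C. Its levels were 5.26 and 11.1 CPM in controls and 4.23 and 5.49 CPM with creatine. The groups overlapped, since control 1 was below creatine 2, and control 2 stood above the other 3 libraries. The log2 fold change was -0.74 (SE 0.243, edgeR adjusted p = 0.0339). It was -0.13 without control replicate 2 (adjusted p = 0.795), -1.19 without control replicate 1 and -0.57 without creatine replicate 1 (adjusted p = 0.0941). Robust edgeR and limma-voom did not call it either (adjusted p = 0.121 and 0.0982).

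HLA-C, the classical heavy chain gene that also serves as a ligand of killer cell receptors, had 1 and 0 counts in the controls and 1 and 6 counts with creatine. Only creatine 2 was over the floor of 3 counts. Most counts from 1 to 20 were even (71.3 to 73.7% in the 4 libraries), so a count may not be 1 independent fragment and the floor may lie higher. No fold is given. HLA-F, a heavy chain gene of the non-classical kind, had 6 and 24 counts in controls and 38 and 10 with creatine, or 0.100, 0.489, 0.738 and 0.209 CPM. The groups overlapped, and its log2 fold change of 0.71 had a 95% interval from -1.02 to 2.44 (edgeR adjusted p = 0.621). HLA-G, the class I gene of the placenta and not one of the 9, had at most 2 counts. The table also holds 12 symbols of class I pseudogenes, none with more than 34 counts in a library. Heavy chain genes are near-identical in parts and highly variable between people. No source used here says how reads matching several of them, or alleles unlike the reference, were treated, so single HLA genes, HLA-B and HLA-C above all, are uncertain.

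B2M, the light chain gene, was higher with creatine before correction for GC content, a direction that turned after it. The gene (chromosome 15, 44711487 to 44718877, plus strand) was at 568 and 628 CPM in controls and 660 and 704 CPM with creatine. The groups did not overlap, though control 2 and creatine 1 lay close. The log2 fold change was 0.19 (SE 0.0656, edgeR adjusted p = 0.0451), against -0.020 corrected for GC content and length (adjusted p = 0.931) and a median of 0.21 over other genes of like GC content. B2M did not pass without control replicate 1 (0.12, adjusted p = 0.166), without creatine replicate 1 (0.23, adjusted p = 0.0976) or without creatine replicate 2 (0.14, adjusted p = 0.386).

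Summed over HLA-B, HLA-C, HLA-E and HLA-F, the heavy chains stood at 60.2 and 69.2 CPM in controls and at 43.1 and 42.0 CPM with creatine. Per kilobase, that sum was 21.6 and 22.4% of B2M in controls and 13.3 and 12.2% with creatine. The groups did not overlap in either measure. The exact permutation test gave p = 0.333 (two-sided) for each, the smallest that 2 against 2 libraries allow. With principal transcript lengths the share of B2M was 7.36 and 8.05% in controls and 4.62 and 4.28% with creatine. Corrected for GC content and length, the share was 19.4 and 19.0% against 15.8 and 13.5%, and its log2 ratio of creatine to control went from -0.79 to -0.39. The groups still did not overlap. Both sums are mostly HLA-E, so they repeat its fall.

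The genes of peptide transport and loading did not move as one. TAP1 (chromosome 6, 32845209 to 32853978, minus strand), one subunit of the transporter, was at 37.5 and 33.7 CPM in controls and 27.2 and 26.8 CPM with creatine. Both creatine libraries were below both controls. The log2 fold change was -0.40 (SE 0.101, edgeR adjusted p = 0.0078), and without control replicate 1 it was -0.32 (adjusted p = 0.0595). TAP2 (chromosome 6, 32821833 to 32838780, minus strand), the other subunit, was at 114 and 126 CPM in controls and 118 and 102 CPM with creatine. Its groups overlapped, with a log2 fold change of -0.12 (95% interval -0.29 to 0.041, edgeR adjusted p = 0.305). TAP2 shares 2064 of its 6390 exon bases with an overlapping gene on the same strand in GENCODE 29, so its level is uncertain. TAPBP (chromosome 6, 33299694 to 33314387, minus strand), which bridges the transporter and the heavy chain, was at 6.84 and 3.99 CPM in controls and 5.44 and 6.16 CPM with creatine. Both creatine libraries lay between the 2 controls, and its log2 fold change was 0.092 (95% interval -0.36 to 0.54, edgeR adjusted p = 0.828).

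NLRC5 (chromosome 16, 56989485 to 57083531, plus strand), the transactivator of class I genes, was at 16.9 and 16.1 CPM in controls and 13.9 and 12.3 CPM with creatine. Both creatine libraries were below both controls, but the log2 fold change of -0.33 (SE 0.129, 95% interval -0.60 to -0.063) did not pass (edgeR adjusted p = 0.0746).

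**Figure D2:**
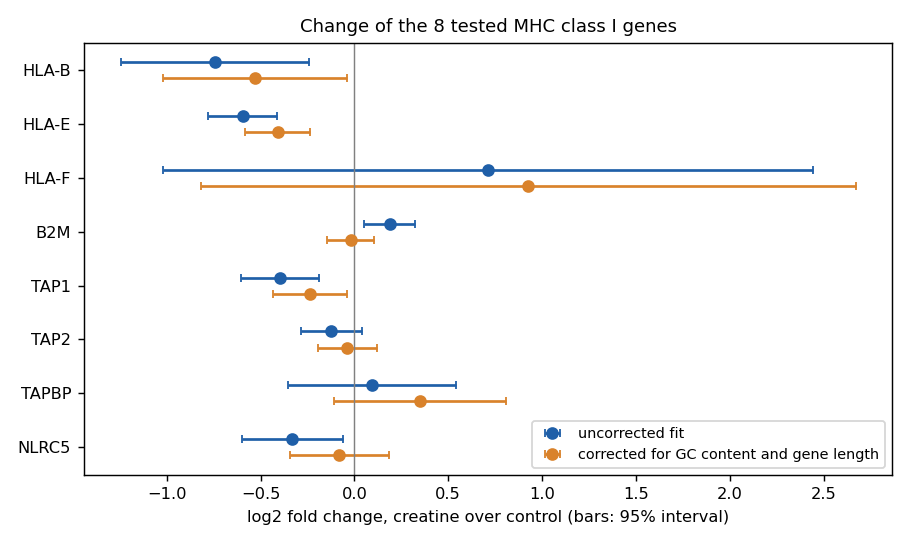
Log2 fold change, creatine over control (horizontal axis), of the 8 tested members with 95% intervals, in the uncorrected fit and in a fit corrected for GC and length. HLA-E stays below 0 in both (-0.60 and -0.41), while B2M goes from 0.19 to -0.020.

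Fold changes of all genes ran along transcript GC content (Spearman's rho -0.534 over 15279 genes, which share the same 4 libraries and are no replicates). The members spread over much of this range, from 40.6% GC in B2M to 60.8% in TAPBP among those tested. Other tested genes within 1 point of HLA-E (58.7% GC, 947 genes) had a median log2 fold change of -0.23, and 27.6% of them were lower. Those within 1 point of B2M (1312 genes) had a median of 0.21, and 25.7% of them were higher. HLA-B, TAP1 and NLRC5 stood beside medians of -0.23, -0.13 and -0.20 at their own GC content (60.1, 54.6 and 57.6%). TAP2, at -0.12, stood beside a median of -0.060. TAPBP and HLA-F, at 0.092 and 0.71, stood above their medians of -0.24 and -0.19.

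**Figure D3:**
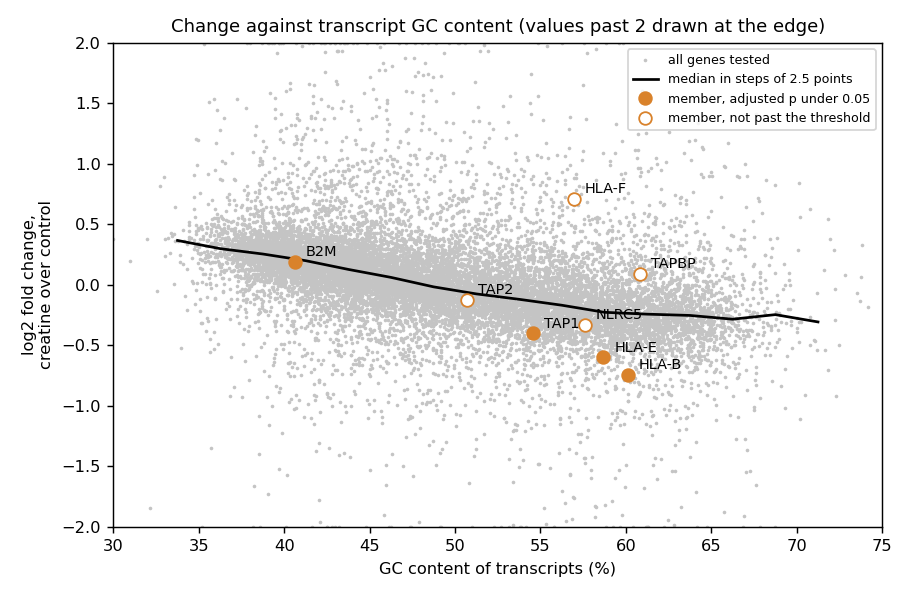
Log2 fold change, creatine over control (vertical axis), against the GC content of transcripts in percent (horizontal axis), for all genes tested (grey), with the median in steps of GC (black line) and the 8 tested members (orange, filled where past the threshold). B2M lies on the line, HLA-E and HLA-B lie below it, and TAPBP and HLA-F lie above it.

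Once GC content and length had been corrected for, HLA-E was the 1 member that passed, at a log2 fold change of -0.41 (SE 0.0839, edgeR adjusted p = 0.0129). In that fit 2.42% of all genes tested were called, with 1.35% higher and 1.07% lower. HLA-E did not pass the corrected fit without creatine replicate 2 (-0.33, adjusted p = 0.103) and passed without each of the other 3 libraries. HLA-B (-0.53, adjusted p = 0.284), TAP1 (-0.24, adjusted p = 0.222) and NLRC5 (-0.081, adjusted p = 0.838) remained below 0 without passing. HLA-B did pass the corrected fit without control replicate 1 (-0.95, adjusted p = 0.00166), and stood at 0.051 without control replicate 2. B2M, at -0.020, had the sign opposite to its uncorrected value. The corrected median of the 8 was -0.059, against -0.0017 over all genes tested. Changes that run with GC content or length are taken out by this correction whatever their origin.

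The rest of the pathway was read from lists of 97 further genes, of which 93 were measured and 82 tested. Among these 82, 4 rose, 10 fell and 68 missed the threshold (edgeR), with a median log2 fold change of -0.045. That is 14 calls, a share close to the 19.6% of all genes. Calls numbered 3 without creatine replicate 1 and 9 without creatine replicate 2. The 4 that rose had a GC content between 34.3 and 41.9%, and the 10 that fell between 52.6 and 64.3%. None of the 82 passed edgeR after the correction for GC content and length, in which the share over all genes was 2.42%.

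**Figure D4:**
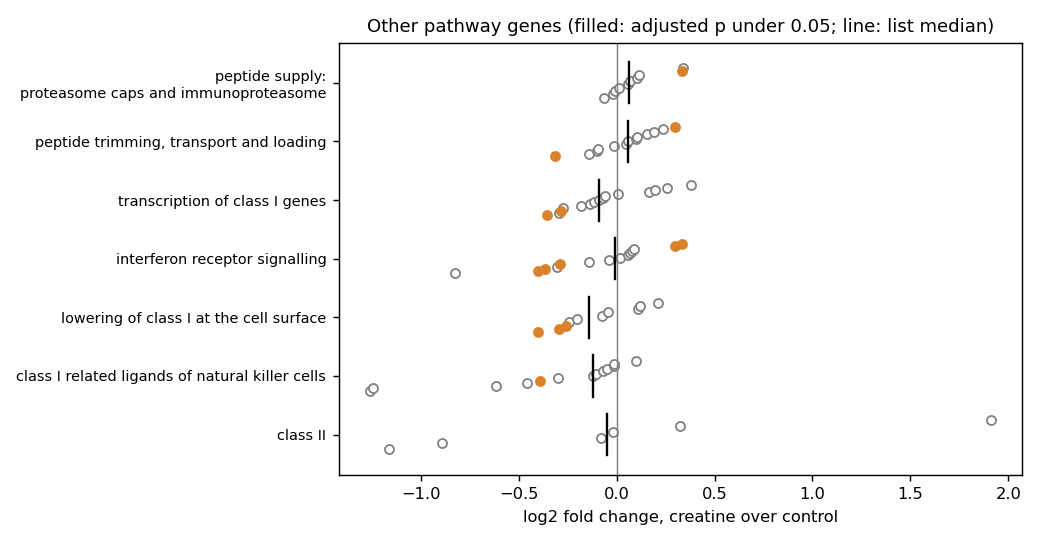
Log2 fold change, creatine over control (horizontal axis), of the tested genes in 7 lists of the class I pathway and its relatives (rows), members left out, with filled points past the threshold and a line at each median. List medians lie between -0.14 and 0.064.

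In peptide supply, 1 of 10 tested genes was higher and 0 were lower, with a median of 0.064. POMP, the chaperone that assembles proteasomes, rose by 0.33 (edgeR adjusted p = 0.0047). After the correction for GC content and length it stood at -0.0195 (edgeR adjusted p = 0.955). The immunoproteasome subunits PSMB8, PSMB9 and PSMB10, which shape peptides for class I, stood at -0.017, 0.34 and 0.060, none past the threshold (adjusted p = 0.932, 0.197 and 0.828). PSMB9 shares the stretch between divergent starts with TAP1, and stood at 5.72 and 5.38 CPM in controls and 6.45 and 7.60 CPM with creatine. The abundant PSMB5 and PSME3, a catalytic subunit and a nuclear cap, were at -0.0075 and -0.066.

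Among 13 further genes of trimming, transport and loading, 1 was higher and 1 was lower (median 0.058). The peptidase TPP2 rose by 0.30 (edgeR adjusted p = 0.0088). The peptidase THOP1, which can destroy class I peptides, fell by 0.32 on the log2 scale (edgeR adjusted p = 0.0041). In the fit corrected for GC content and length, TPP2 and THOP1 stood at 0.088 and -0.002 (edgeR adjusted p = 0.615 and 0.993). Neither passed without creatine replicate 1 (adjusted p = 0.0777 and 0.0598), nor did TPP2 without creatine replicate 2 (0.0565). The lectin chaperone CALR and the chaperone HSPA5, the most abundant of the list, stood at -0.10 and 0.15, neither past the threshold (adjusted p = 0.235 and 0.0671).

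Of 15 other genes of class I transcription, 0 were higher and 2 were lower (median -0.092). USF2, a factor of E boxes, and RELA, the p65 subunit of NF-kappaB, fell by 0.35 and 0.28 on the log2 scale (edgeR adjusted p = 0.0068 and 0.0102). With GC content and length corrected for, USF2 and RELA stood at -0.087 and -0.022 (edgeR adjusted p = 0.649 and 0.932). Neither passed without creatine replicate 1 (0.188 and 0.142). RFX5, which binds the X box with NLRC5, and NFKB1, the p50 partner of RELA, were at -0.058 and 0.0061 (adjusted p = 0.666 and 0.970).

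Of 14 tested genes of interferon signalling, 2 were higher and 3 lower (median -0.0099). Both chains of the interferon gamma receptor were called, in opposite directions, before the correction for GC content. IFNGR1, the chain that binds the ligand, rose by 0.30 (edgeR adjusted p = 0.0199), while IFNGR2, the accessory chain, fell by 0.40 on the log2 scale (adjusted p = 0.0186). Corrected for GC content and length, IFNGR1 and IFNGR2 stood at 0.0033 and -0.33, neither past the threshold (edgeR adjusted p = 0.991 and 0.14). The phosphatase PTPN2, which dampens the signal, rose by 0.33 (edgeR adjusted p = 0.0181). The kinase TYK2 and the factor IRF9 fell by 0.29 and 0.37 on the log2 scale (edgeR adjusted p = 0.0087 and 0.0150). In the corrected fit PTPN2, TYK2 and IRF9 stood at 0.16, -0.014 and -0.19 (edgeR adjusted p = 0.456, 0.962 and 0.371). Without creatine replicate 1, PTPN2 was the 1 of these 5 that passed (adjusted p = 0.0194); IFNGR1, IFNGR2, TYK2 and IRF9 were at 0.083, 0.151, 0.0831 and 0.123. IFNGR1 also did not pass without control replicate 1 (0.164), and IFNGR1, PTPN2 and TYK2 did not without creatine replicate 2 (0.112, 0.278 and 0.0502). The abundant kinase JAK1, which passes the signal on from the receptors, was at 0.057 (adjusted p = 0.632).

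Of 10 tested genes that lower class I at the surface, 0 were higher and 3 were lower (median -0.14). SYVN1 and STUB1, ubiquitin ligases, fell by 0.40 and 0.29 on the log2 scale (edgeR adjusted p = 0.0041 and 0.0116). TMEM127, which helps to send class I molecules to degradation, fell by 0.26 (edgeR adjusted p = 0.0403). Corrected values of SYVN1, STUB1 and TMEM127 were -0.17, -0.072 and -0.074 (edgeR adjusted p = 0.337, 0.712 and 0.735). EZH2, the methyltransferase that can silence class I genes and the most abundant of the list, was at 0.11 (adjusted p = 0.352). None of the 3 passed without creatine replicate 1 (0.0556, 0.115 and 0.255), and TMEM127 did not without control replicate 1 (0.305) or creatine replicate 2 (0.0731). Among 13 tested relatives of class I and ligands of natural killer cells, 0 were higher and 1 was lower (median -0.12). NECTIN2, a ligand of the receptor DNAM-1, fell from 97.1 ± 3.30 to 74.1 ± 0.765 CPM, by 0.39 on the log2 scale (adjusted p = 0.0012). After the correction for GC content and length, NECTIN2 stood at -0.15 and did not pass (edgeR adjusted p = 0.299). PVR, its relative, and PROCR, a class I-like receptor of protein C, were the most abundant at -0.070 and -0.12 (adjusted p = 0.499 and 0.306), and the NKG2D ligands MICB and ULBP1 had 0 counts in all libraries.

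By root mean square distance between log2 CPM profiles centred over the 4 libraries, the pathway genes closest to the mean profile of the 8 members were USF1 (0.034), IRGQ (0.070) and WWP2 (0.072) among 82 candidates. With 4 libraries this describes their values and no more.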

How the data were processed

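Counts per gene were deposited for 4 RNA-seq libraries of total RNA (TruSeq RNA kit, per the labels' protocols). The authors deposited them raw, as whole read counts for each symbol, beside a gene length in bases. Tools named in the submitters' processing notes are HISAT2 2.2.1, FastQC 0.11.9, featureCounts and DESeq2, with the build GRCh38. Annotation, strand and multiple-match settings of the counting are not named in any source used here. Counts of 1 to 20 were even in 71.3 to 73.7% of cases and counts over 1000 in 49.0 to 51.5%; the cause was not tested.

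Genes were filtered with filterByExpr (15302 kept), scaled by TMM and tested with edgeR 4.0.16 (R 4.3.3, quasi-likelihood, group as the only term). P-values were adjusted by Benjamini-Hochberg with a threshold of 0.05. The test was tested on simulated data first. The model leaves 2 residual degrees of freedom per gene. SE is the log2 fold change over the root of the test's F. GC content came from GENCODE 29 transcripts, which matched 34408 symbols, and the median stood in for 23 tested genes without it. The correction fitted each library's log2 CPM on GC content and log2 length (mgcv 1.9.3) and entered the trend as an offset. Alternatives were RLE scaling or none, no filter or 1 CPM in 2 libraries, DESeq2 1.42.0, limma-voom 3.58.1, robust edgeR, a replicate block, GC corrections and each library left out. Members, lists and tests were chosen with earlier results of these data known. All 9 members are reported. Of each list, the rule named up to 4 called genes by smallest adjusted p and the 2 most abundant; IFNGR1, PSMB8, PSMB9, PSMB10, RFX5 and NFKB1 were named after their values were seen. Some genes that the rule takes in are not reported here.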

Additional observations from a re-analysis of the deposited data

How the results depend on the processing

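HLA-E kept its direction in all 19 alternatives run (log2 fold change -0.64 to -0.33) and passed in 18. TAP1 stayed below 0 in all 19 (-0.49 to -0.17) and passed in 11, HLA-B passed in 9 and B2M in 9. Corrections for GC content moved most: 1 member passed with GC content and length, with GC content alone and with the replicate block added to the correction, against 4 uncorrected. All genes called were then 370, 364 and 673, against 3001, and pathway genes 0, 0 and 0, against 14. B2M took the opposite sign in these 3 fits (-0.020, -0.041 and -0.019). With 1 library left out, members called were 2 to 3, pathway genes 3 to 18 and all genes 2804 and 3114 (controls) and 1162 and 1951 (creatine). With the correction as well, a step chosen after seeing the data, members were 1 to 2 without a control and 0 to 1 without a creatine library, pathway genes 0, and all genes 241 and 817, and 240 and 314. In the uncorrected fits with a library left out HLA-F ranged from -0.48 to 2.21 (without a control -0.041 to 2.21) and TAPBP from -0.25 to 0.54 (-0.0047 to 0.18 without a creatine library). In the corrected ones the ranges were -0.95 to 0.051 for HLA-B, -0.11 to 0.040 for B2M (-0.098 to 0.0060 without a creatine library), -0.29 to 2.42 for HLA-F (to 1.57 without a creatine library), -0.16 to 0.067 for TAP2 (-0.13 to 0.046 without a control), -0.0051 to 0.81 for TAPBP and -0.18 to 0.016 for NLRC5. A lone library left in a group was assumed to vary like the others. With a library left out, without the correction, the log2 ratio of creatine to control was -0.70 to -0.50 for summed heavy chains and -0.86 to -0.73 for heavy chains over B2M. Corrected for GC content and length, also chosen after seeing the data, these were -0.41 and -0.39, against -0.60 and -0.79. Shared replicate numbers are not known to mark paired samples (correlation of deviations -0.0228 over 15302 genes); a fit with the replicate block called 5 members, NLRC5 included (adjusted p = 0.0449), 21 pathway genes and 3795 genes in all. HLA-F had no value under the filter of 1 CPM in 2 libraries. Low counts limit HLA-C and HLA-F.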

Other observations

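Class II genes, which present peptides from outside the cell, were near the floor in part. HLA-DRB1 and HLA-DQB1 had 0 counts in all 4 libraries and HLA-DRA had 6 and 2 counts in controls and 0 and 0 with creatine. HLA-DPB1, the beta chain of DP, was the most abundant at 3.72 and 5.28 CPM in controls and 4.62 and 4.24 CPM with creatine, followed by HLA-DMA, which helps to load class II, at 4.52 and 2.40 against 4.21 and 4.51 CPM. Their groups overlapped, and the log2 fold changes were -0.018 and 0.33 (edgeR adjusted p = 0.971 and 0.422). CIITA, the class II counterpart of NLRC5, had 381 and 297 counts in controls and 233 and 276 with creatine (log2 fold change -0.27, edgeR adjusted p = 0.352). The invariant chain gene CD74 had 43 and 20 counts against 13 and 12 (edgeR adjusted p = 0.292). HLA-DOB, which like CIITA and CD74 was picked after its values were seen, had 6 and 6 counts in controls and 20 and 22 with creatine, a log2 fold change of 1.91 with an edgeR adjusted p of 0.134. None of the 6 tested class II genes passed, corrected or not.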
